A study of Mus musculus with 6 samples.

Results

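The genes described here are the expressed Zfp genes of the aged mouse prefrontal cortex, that is, protein-coding genes whose symbol is Zfp followed by a number and whose mean level was at least 2 FPKM over the 6 samples. FPKM counts the sequenced fragments of a gene relative to its exon length and to the depth of the library. Of the 21006 genes measured, 348 were protein-coding Zfp genes, and 224 of these reached the level and were kept. A further 111 lay between 0.1 and 2 FPKM and 13 lay below 0.1 FPKM. The level was read from the same 6 samples, so that it is a description of these genes and not a finding. Just inside it were Zfp13, Zfp85 and Zfp111, each with a mean of 2.01 FPKM. Just outside were Zfp595 with a mean of 1.95 FPKM, Zfp235 with 1.93 FPKM and Zfp383 with 1.92 FPKM.

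All samples came from the prefrontal cortex of male wild type C57BL/6 mice, aged 18 months by the age label, while the sample titles carry 17M, which is not explained. The PND group (n = 3; PND, postoperative neurocognitive disorder) had isoflurane anesthesia plus an exploratory laparotomy, in which the abdomen is opened and its organs are inspected, and the CON group (n = 3) had neither. Anesthesia and surgery were always given together and therefore cannot be told apart. Each sample was 1 animal, chosen at random by the study from a larger group after a Barnes maze test of spatial memory, and the question was which mRNAs differ in a cortex after surgery.

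Most Zfp genes encode proteins with C2H2 zinc fingers, short loops in which a pair of cysteines and a pair of histidines hold a zinc ion and the residues between them contact DNA. Fingers usually stand in tandem, joined by a conserved linker, and each finger reads a few bases. Many of these proteins also carry a KRAB domain at their start. KRAB recruits the scaffold protein TRIM28, which brings in the histone methyltransferase SETDB1 and HP1 proteins. The resulting heterochromatin silences retrotransposons and nearby genes, and many KRAB genes lie in clusters of closely related copies.

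The first C2H2 finger unit with its linker is shown for 6 of the genes on which the results below turn, so that the shared scaffold and the variable contact residues can be seen. These were Zfp398 (chr6:47866471-47866548, plus strand), Zfp605 (chr5:110128104-110128181, plus strand), Zfp788 (chr7:41648827-41648904, plus strand), Zfp260 (chr7:30105073-30105150, plus strand), Zfp715 (chr7:43299134-43299211, minus strand) and Zfp281 (chr1:136626063-136626140, plus strand), all on GRCm38. Each stretch is 78 bases of coding sequence from the longest coding transcript in GENCODE M21, and in each gene it lay in the last exon. Capitals mark the codons of the 2 cysteines and the 2 histidines of the finger.
Zfp398: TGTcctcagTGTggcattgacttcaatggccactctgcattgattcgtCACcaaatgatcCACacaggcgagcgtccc
Zfp605: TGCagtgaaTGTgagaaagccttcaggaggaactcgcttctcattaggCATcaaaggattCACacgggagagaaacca
Zfp788: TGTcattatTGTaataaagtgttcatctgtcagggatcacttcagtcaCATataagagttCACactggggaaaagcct
Zfp260: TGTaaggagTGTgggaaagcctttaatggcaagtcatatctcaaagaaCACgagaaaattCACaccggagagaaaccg
Zfp715: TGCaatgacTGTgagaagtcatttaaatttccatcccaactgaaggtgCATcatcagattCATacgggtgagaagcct
Zfp281: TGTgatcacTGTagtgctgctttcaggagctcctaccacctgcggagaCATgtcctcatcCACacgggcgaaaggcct
The zinc-holding codons are at the same positions in all 6 units because the search fixed their spacing. Between genes the units were identical at 47.4% (Zfp398 and Zfp788) to 66.7% (Zfp605 and Zfp260) of their 78 bases.

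Over all 224 genes the predicted proteins held a median of 11 C2H2 patterns, with a range of 0 to 36. A KRAB pattern was found in 151 genes (67.4%), with a median of 12 fingers, and 73 genes were without it, with a median of 7. Zfp142 had the most fingers (36), followed by Zfp462 and Zfp619 with 33 each. Zfp365, Zfp330 and Zfp935 had no match to the finger pattern in the transcripts read here. The genes were clustered on the genome, with 47 on chromosome 7, 32 on chromosome 17 and 20 on chromosome 13, together 44.2% of all. In 50 genes more than 10% of the 50-base words of the transcripts also occurred in transcripts of other genes, as in Zfp97 (83.1%), Zfp970 (57.2%) and Zfp935, in which all of them did. For such genes the division of fragments between copies was not known, and their values are uncertain. An exon overlap with another gene was present in 59.

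The 6 libraries had an estimated effective depth of 7200000 to 9400000 fragments, and each Zfp gene was covered by a median of 218 fragments per sample. All 224 genes were detected in every sample. Together they took 0.729% to 0.875% of the FPKM of a sample. Markers of cortical neurons, astrocytes and oligodendrocytes were present in all samples. The 4 microglia markers summed to 14.1 to 17.8 FPKM in PND against 17.6 to 23.4 in CON, and the 4 endothelial markers to 14.7 to 18.6 against 12.4 to 15.0. In each list 1 gene carried most of the difference, P2ry12 with means of 5.49 and 9.27 FPKM in PND and CON and Ly6c1 with 5.79 and 3.23, while Cx3cr1 and Tmem119 had higher and Flt1 lower means in PND. The 5 choroid plexus markers stayed between 0.774 and 1.45 FPKM in sum, and the 2 blood markers at or below 0.0893 FPKM in sum except in PND replicate 1 (2.06 FPKM). In whole tissue, fewer cells of a type and less RNA per cell cannot be told apart. The part of these markers in the Zfp results was not tested.

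Most Zfp genes were expressed at a moderate level. The median over the 224 genes was 5.63 FPKM, with 70 genes at 2 to 4 FPKM, 107 at 4 to 10 FPKM and 47 at 10 FPKM or more. Zfp445, a KRAB gene whose protein keeps DNA methylation at imprinted loci, stood highest. Its values were 97.5, 110 and 94.0 FPKM in PND and 107, 94.0 and 104 FPKM in CON, 2.03 times the mean of the next gene. The groups overlapped fully, and the lowest of these values was above the highest value of any other Zfp gene.

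The second gene was Zfp365, whose protein binds DISC1, a scaffold of neuronal development and centrosomes. It was at 49.9, 40.7 and 50.1 FPKM in PND and at 48.5, 61.6 and 48.6 FPKM in CON. Zfp106, an RNA-binding protein needed for motor neuron and muscle upkeep, was at 45.7, 47.1 and 45.3 FPKM in PND and at 47.6, 44.9 and 51.6 FPKM in CON. The levels of these neighbours in the order were within each other's spread. Zfp458, a KRAB gene with a mean of 31.4 FPKM, and Zfp292, a large transcription factor gene with a mean of 28.2 FPKM, followed, and their values overlapped as well.

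**Figure D1:**
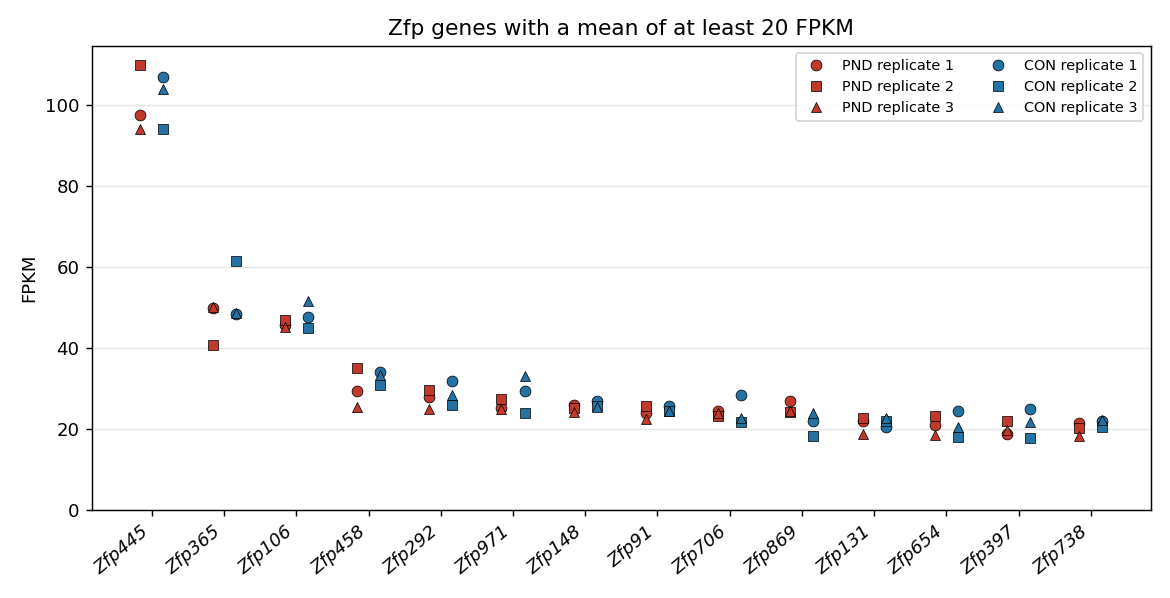
FPKM (vertical axis, from 0) of the 14 Zfp genes that averaged 20 FPKM or more, ordered by mean; each point is 1 animal, red for PND and blue for CON, with the replicate number given by the shape. Zfp445 lies between 94.0 and 110 FPKM in all 6 samples, apart from the rest.

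The levels differed little between PND and CON. Fold changes were computed on log2(FPKM + 0.1), a scale that understates changes of low genes, and tested with limma over the 18185 genes that averaged 0.1 FPKM or more. The median log2 fold change of the 224 Zfp genes was -0.04, against 0.01 for all genes tested, and 84 genes (37.5%) had higher and 140 lower values in PND. Higher values were found in 52.4% of all genes tested and in 50.6% of the other protein-coding genes at 2 FPKM or more. After a correction for GC content, described below, 123 of the 224 had lower values, and the number was 119 without CON replicate 1 and 158 without CON replicate 2. In 216 of the 224 genes (96.4%) the log2 fold change was smaller than 0.5 in either direction. This was near the background, with 96.1% of the other protein-coding genes at 2 FPKM or more and 86.3% of all genes tested. The median standard error was 0.18, as in those other protein-coding genes. In 206 genes (92.0%) the 95% interval of the difference lay within 1 log2 unit of 0. The share of the other genes with such an interval was not computed.

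Zfp398 and Zfp605 were chosen for their levels and are left out of the counts of calls. A further 10 Zfp genes had a group mean below 2 FPKM and reached the level only through the other group. In 5 of them (Zfp111, Zfp128, Zfp142, Zfp583 and Zfp984) that was PND, and in 5 (Zfp13, Zfp58, Zfp85, Zfp108 and Zfp639) it was CON. Since the choice of these genes favours a difference in that direction, they are also left out of the counts and no test is given for them. Among the 214 Zfp genes at 2 FPKM or more in both group means, 78 had higher and 136 lower values in PND. The counts of calls cover 212 genes and are set beside the 8126 other protein-coding genes at 2 FPKM or more in both group means.

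At an unadjusted p below 0.05 in limma there was 1 of the 212, Zfp260, which was higher in PND. This was 0.472%, against 3.13% of all genes tested and 2.06% of the other protein-coding genes. Counting higher genes alone, these backgrounds were 1.73% and 1.03%. With the cut-off used here, an absolute log2 fold change above 1 on the log2(FPKM + 0.1) scale and an unadjusted p below 0.05, Zfp260 was again the only gene, against 1.33% of all genes and 0.209% of the other protein-coding genes, or 0.841% and 0.0984% for higher genes alone. The same held with the fold change taken as the ratio of mean FPKM, more than 2-fold in either direction, against 1.45% of all genes and 0.172% of the other protein-coding genes. No Zfp gene had an adjusted p below 0.05 (limma, Benjamini-Hochberg over all genes tested), against 0.011% of all genes and 0.0% of the other protein-coding genes.

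These counts moved with single samples, and so did those of the other genes. Without CON replicate 2 the number at an unadjusted p below 0.05 was 8, with 1 higher and 7 lower. This was 3.77% of the Zfp genes, against 4.34% of the other protein-coding genes in the same fit, of which 2.72% were higher and 1.62% lower. It was 3 (1.42%) without PND replicate 2 and without PND replicate 3, against 2.24% and 1.51%. Leaving out PND replicate 1 or CON replicate 1 gave 2 (0.943%), against 1.28% and 3.95%, and 1 without CON replicate 3, against 1.59%. Zfp260 was counted in every one of these fits.

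The groups did not overlap in 12 of the 212 Zfp genes, with 4 higher and 8 lower in PND. This was 5.66% of them, against 7.66% of all genes tested and 6.45% of the other protein-coding genes, so the share was near the background. By direction the shares were 1.89% higher and 3.77% lower, against 3.78% and 3.88% of all genes tested and 2.66% and 3.79% of the other protein-coding genes.

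**Figure D2:**
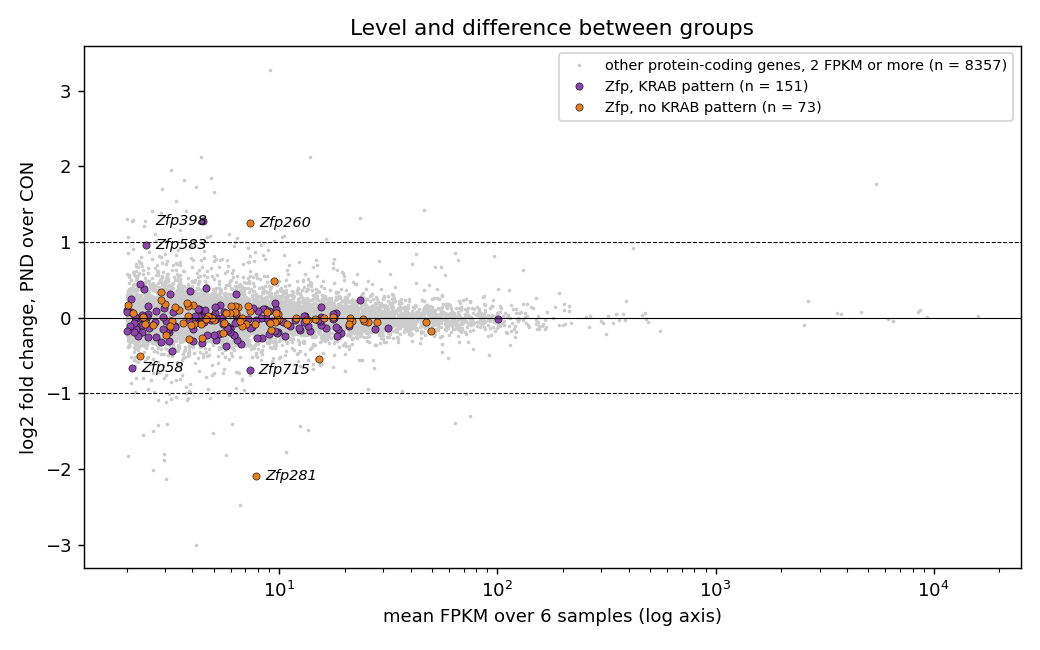
Mean FPKM over the 6 samples (horizontal, log axis) against the log2 fold change of PND over CON (vertical) for 151 Zfp genes with a KRAB pattern (purple), 73 without (orange) and 8357 other protein-coding genes at 2 FPKM or more (grey); dashed lines mark a log2 fold change of 1 in each direction. Zfp398 and Zfp260 lie above the upper line, Zfp583 just below it, and Zfp281 far below the lower line through 1 sample.

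Zfp398 showed the clearest split between the groups. This KRAB gene (ENSMUSG00000062519, chromosome 6, 47835661 to 47873537, plus strand) encodes a protein with 7 fingers that is known to interact with the estrogen receptor. It was at 6.19, 6.59 and 6.39 FPKM in PND and at 2.29, 2.74 and 2.75 FPKM in CON. All PND samples were high and all CON samples were low, with no value in between. The means were 6.39 ± 0.198 and 2.59 ± 0.262 FPKM (SD, n = 3 each), a 2.47-fold difference, and no test is given because the gene was chosen for this pattern.

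The estimated fragments behind these values were about 202 to 262 in the CON samples and 612 to 706 in the PND samples. The gap between the levels was 1.14 on the log2 scale, and the samples within a level differed by at most 0.25. Its neighbours did not share the pattern. Zfp282, which starts 3667 bases away on the same strand, was at 2.27, 1.92 and 2.15 FPKM in PND and at 1.74, 2.73 and 1.69 FPKM in CON. Zfp786, 4794 bases away on the opposite strand, was at 1.08, 1.43 and 0.848 FPKM in PND and at 0.826, 0.934 and 0.713 FPKM in CON. The groups overlapped in both.

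Zfp260, known as an effector of adrenergic signalling in heart muscle cells, passed the cut-off. It has 12 fingers and no KRAB pattern (ENSMUSG00000049421, chromosome 7, 30094777 to 30107622, plus strand). The PND samples were at 13.3, 6.81 and 11.2 FPKM and the CON samples at 3.29, 5.63 and 3.93 FPKM. Every PND sample was above every CON sample, but the gap from PND replicate 2 to CON replicate 2 was small. The means were 10.4 ± 3.32 and 4.28 ± 1.21 FPKM (SD, n = 3 each). The log2 fold change was 1.25 with a standard error of 0.29 (limma, unadjusted p = 0.00333, adjusted p = 0.99987). Over the alternative settings it ranged from 1.04 to 1.52, with adjusted p from 0.609 to 1.

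Zfp146 lies near Zfp260 on chromosome 7 (30161269 to 30169750, minus strand) and was the only gene with which Zfp260 shared 50-base words, 0.505% of those of Zfp260 and 1.01% of those of Zfp146. It was at 10.5, 7.76 and 20.6 FPKM in PND and at 15.4, 17.7 and 19.1 FPKM in CON, so that PND replicates 1 and 2 were below all CON samples and PND replicate 3 was above them. The sum of Zfp260 and Zfp146 was 23.8, 14.6 and 31.8 FPKM in PND and 18.7, 23.3 and 23.0 FPKM in CON, and the groups overlapped in this sum. How fragments were divided between the genes was not tested, and Zfp146 was picked with its values in view.

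Zfp583, a KRAB gene with 12 fingers (ENSMUSG00000030443, chromosome 7, 6315660 to 6331285, minus strand), was at 3.53, 3.82 and 2.50 FPKM in PND and at 1.84, 1.42 and 1.62 FPKM in CON. Again all PND samples were above all CON samples. The log2 fold change was 0.96 and the ratio of the mean FPKM was 2.02. All CON samples were below 2 FPKM, so that the gene was kept only through its PND values, and no test is given. Its depth was lower than that of the former genes, with a median of 58.7 fragments per sample.

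Of the genes next in order, those tested did not pass. Zfp869, with higher values in PND, had a log2 fold change of 0.24 and a standard error of 0.13 (limma, unadjusted p = 0.103). Zfp128 was at 2.35, 3.27 and 2.46 FPKM in PND and at 1.89, 1.91 and 1.96 FPKM in CON, with a log2 fold change of 0.45. Like Zfp583 it was kept only through its PND values, and no test is given. In both genes the PND samples were all above the CON samples.

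Among those with lower values in PND were Zfp945 (log2 fold change -0.30; limma, unadjusted p = 0.0655), Zfp273 (-0.31, unadjusted p = 0.094), Zfp612 (-0.24, unadjusted p = 0.0969) and Zfp772 (-0.33, unadjusted p = 0.103), all KRAB genes, and Zfp58, kept only through its CON values, is described below. Zfp945 was at 5.04, 6.14 and 6.05 FPKM in PND and at 7.13, 6.72 and 7.36 FPKM in CON. Zfp945 and Zfp273 had no overlap between groups, and Zfp612 and Zfp772 had. All adjusted p-values of these genes in limma were 0.99987.

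Outside the naming rule, Zfp189 and Zfp143 were singled out after their values were seen, for their known roles. Zfp189 has been linked to stress resilience in the mouse prefrontal cortex. It was at 10.2, 9.84 and 10.4 FPKM in PND and at 8.84, 8.21 and 9.65 FPKM in CON, without overlap, and the difference of 0.19 (log2) did not pass the test (limma, unadjusted p = 0.154). Zfp143, an activator bound at many promoters, was at 3.68, 3.76 and 4.59 FPKM in PND and at 4.63, 4.97 and 4.83 FPKM in CON, also without overlap, with a log2 fold change of -0.26 (limma, unadjusted p = 0.126).

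Some Zfp genes fell into levels that did not follow the groups. The 6 log2 values of each gene were sorted and split at the largest gap, and in 9 Zfp genes this gap was at least 1. They include Zfp398 and Zfp605, which were chosen for their levels. Among the other 222 genes there were 7 (3.15%), against 3.47% of the other protein-coding genes at 2 FPKM or more, so the share was near the background. These genes were found by their values and are described without a test. In 6 of them (2.7%, against 1.99%) a single sample lay below the other 5. In none did a single sample lie above the other 5 (0.179% of the other protein-coding genes). When each level also had to hold at least 2 samples and the gap had to be 3 times the range within a level, Zfp398 alone was left, and 0 of the other 222 genes (0.586% of the other protein-coding genes).

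Zfp605, a KRAB gene with 12 fingers (ENSMUSG00000023284, chromosome 5, 110110092 to 110129794, plus strand), had 2 high and 4 low samples. It was at 8.65, 3.17 and 2.53 FPKM in PND and at 10.5, 2.21 and 2.81 FPKM in CON. The high samples were replicate 1 of each group, and all other samples were low. The high samples had a mean of 9.56 FPKM and the low ones of 2.68 FPKM, a 3.57-fold difference with a gap of 1.42 on the log2 scale. Averaged by group these gave 4.78 ± 3.37 and 5.16 ± 4.61 FPKM for PND and CON (SD, n = 3 each). The fragments behind these values were about 268 and 275 in the high samples and 62.9 to 87.5 in the low ones.

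The neighbour of Zfp605 on the same strand, Chfr, was at 3.52, 3.43 and 3.80 FPKM in PND and at 2.72, 4.20 and 3.06 FPKM in CON, with no split by replicate 1. Gm15484, whose exons overlap Zfp605 on the opposite strand, was not analysed here. Across all genes the samples with replicate number 1 did not deviate together, with a correlation of -0.05 across 12387 genes, which are not independent replicates.

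Zfp788, a KRAB gene with 23 fingers (chromosome 7, 41633203 to 41651530, plus strand), had 4 high and 2 low samples. It was at 2.38, 7.92 and 6.93 FPKM in PND and at 9.65, 3.01 and 7.32 FPKM in CON. The low samples were PND replicate 1 and CON replicate 2, and the high samples were 2.95 times higher on average. Both groups thus held samples of each level.

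In Zfp281, a repressor known from pluripotent cells, PND replicate 1 was at 0.0349 FPKM, about 1.52 fragments. The other PND samples were at 10.1 and 8.24 FPKM and the CON samples at 10.8, 9.14 and 8.65 FPKM, each with 308 to 402 fragments. The log2 fold change of -2.09 rested on that sample and was -0.06 without it. In Zfp715, a KRAB gene, PND replicate 3 was at 1.30 FPKM and the other 5 samples at 7.34 to 9.71 FPKM. The same sample was not low in both genes.

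CON replicate 3 stood apart in Zfp451 and in Zfp287. In Zfp451, whose protein attaches SUMO to other proteins, it was at 3.93 FPKM and the others at 8.44 to 13.5 FPKM. In Zfp287 it was at 0.947 FPKM and the others at 2.36 to 2.84 FPKM. In Zfp629 the low sample was CON replicate 1, at 1.05 FPKM against 2.24 to 3.76 FPKM in the others. The low sample of these 6 genes was therefore PND replicate 1 once, PND replicate 3 in Zfp715 and Zfp58, CON replicate 1 once and CON replicate 3 in Zfp451 and Zfp287.

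Zfp58 was the one of the 9 genes with an overlapping gene on the same strand. It was at 1.97, 2.16 and 0.898 FPKM in PND and at 2.94, 2.59 and 2.19 FPKM in CON, so that PND replicate 3 was low. Gm26965, which shares exon sequence with it, was listed at 2.80 FPKM in PND replicate 3 and at 0 in the other 5 samples. The 2 genes thus moved in opposite directions in this sample, and how fragments were divided between them was not tested.

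**Figure D3:**
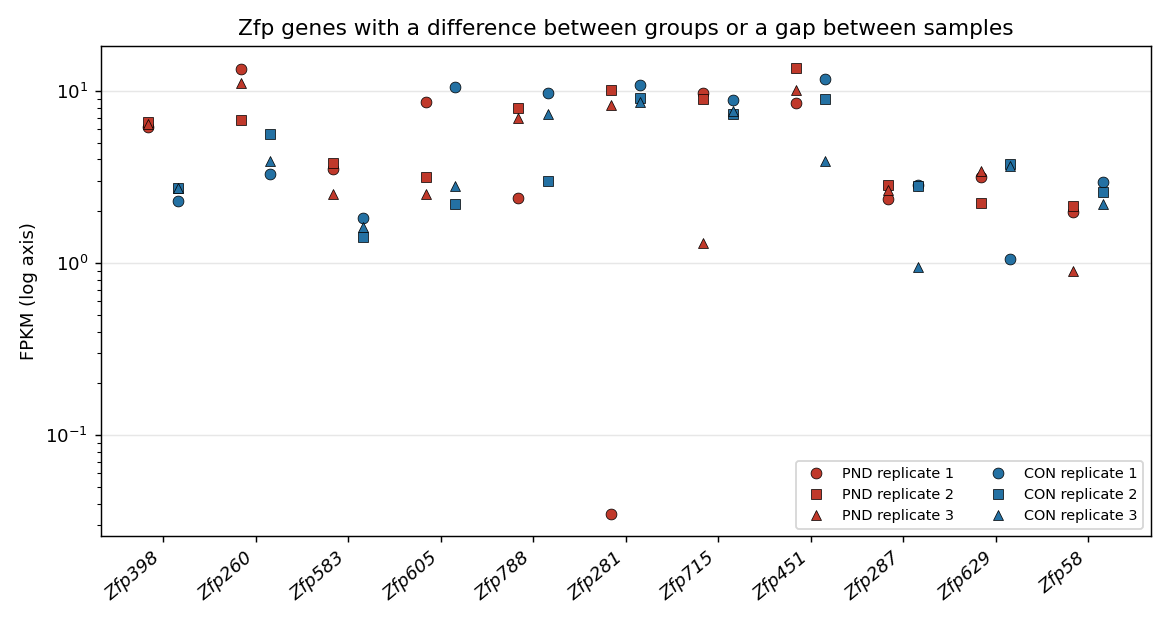
FPKM (log axis) of Zfp398, of Zfp260 and Zfp583, and of the other Zfp genes with a gap of at least 1 log2 unit between sorted samples; each point is 1 animal, red for PND and blue for CON, with the replicate number given by the shape. In Zfp398 the colours separate, in Zfp605 both circles (replicate 1) are high, and in Zfp281 PND replicate 1 is at 0.0349 FPKM.

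Wide ranges over the 6 samples were found in few Zfp genes. In 26 of the 222 genes other than Zfp398 and Zfp605 (11.7%) the highest sample was more than 1 log2 unit above the lowest, against 19.9% of the other protein-coding genes at 2 FPKM or more. The median range was nearly the same, with 0.54 (log2) over all 224 Zfp genes and 0.55 over those other genes. It was narrower, at 0.45, in the other genes with the GC content of the KRAB genes. Zfp148, which binds GC-rich promoters, was at 25.9, 25.4 and 24.2 FPKM in PND and at 26.9, 25.8 and 25.5 FPKM in CON. Zfp91, a ubiquitin ligase of NF-kB signalling, was at 24.1, 25.7 and 22.6 FPKM in PND and at 25.6, 24.5 and 24.6 FPKM in CON. In both genes the samples of the groups overlapped and stayed close together.

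Of 24 Zfp genes with textbook functions, 18 were at 2 FPKM or more, and Zfp36, Zfp346, Zfp384, Zfp423, Zfp57 and Zfp687 were below. None of the 18 had an unadjusted p below 0.05 in limma (3.13% of all genes tested), which for so few genes is near the background. Apart from Zfp281 the log2 fold changes of the 18 lay between -0.17 (Zfp365) and 0.14 (Zfp326). Zfp809, which silences retroviral DNA, was at 11.8, 15.3 and 12.2 FPKM in PND and at 15.1, 13.4 and 13.6 FPKM in CON. Zfp410, known as an activator of Chd4, was at 4.78, 6.14 and 7.43 FPKM in PND and at 4.95, 6.51 and 5.93 FPKM in CON. Chd4 itself had a log2 fold change of -0.01 with a standard error of 0.11.

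Other members of this group act with a known partner. Zfp365 and its partner Disc1 had log2 fold changes of -0.17 and 0.98, the latter from values of at most 0.233 FPKM (limma, unadjusted p = 0.0662). Zfp207, a spindle protein, and its partner Bub3 had 0.01 and 0.11. Zfp711, an X-linked intellectual disability gene, and the demethylase gene Phf8 had both -0.01. Zfp326 and Ccar2, which couple splicing to transcription, had 0.14 and 0.12. Zfp532 and Zfp592, whose proteins join ZMYND8 in chromatin complexes, had -0.07 and 0.11, and Zmynd8 had 0.09. None of the 6 partners had an unadjusted p below 0.05 in limma (3.13% of all genes tested), and so few genes cannot be set apart from that share.

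None of the genes that KRAB proteins use for silencing passed the test. Of 31 co-repressor genes, Atf7ip2 was not analysed here and Uhrf1 was below the filter. Among the other 29, 14 had higher and 15 lower values in PND, none had an unadjusted p below 0.05 in limma (3.13% of all genes tested), and the median log2 fold change was -0.01. Trim28, the scaffold, was at 4.58, 2.98 and 4.88 FPKM in PND and at 3.29, 4.43 and 2.87 FPKM in CON. This gave a log2 fold change of 0.22 with a standard error of 0.25 (limma, unadjusted p = 0.409). Setdb1, the methyltransferase, was at 9.48 ± 0.239 FPKM in PND and at 9.61 ± 0.707 FPKM in CON (SD, n = 3 each). The samples of the groups overlapped in both genes. Tasor and Mphosph8, subunits of the HUSH silencing complex, had log2 fold changes of -0.12 and -0.05, and the HP1 genes Cbx1, Cbx3 and Cbx5 had -0.06, -0.12 and -0.02.

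Taken as a set, the KRAB genes deviated from sample to sample, also within a group. Their median deviation from the gene mean was 0.01, 0.04 and -0.10 (log2) in the PND samples and 0.15, -0.11 and 0.06 in the CON samples. CON replicate 1 was the highest and CON replicate 2 the lowest, both in the same group. The Zfp genes without a KRAB pattern ranged from -0.02 to 0.07 and the other protein-coding genes from -0.04 to 0.04.

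GC content was lowest in the KRAB genes. Its median was 41.3% in the KRAB genes, 46.3% in the Zfp genes without the pattern and 48.0% in the other protein-coding genes. After a loess correction of each sample for GC content the deviations of the KRAB genes lay between -0.02 and 0.05, and CON replicates 1 and 2 were at 0.01 and -0.02. CON replicate 3 hardly moved, from 0.06 to 0.05. The other protein-coding genes in the same GC range as the KRAB genes (36.7% to 50.2%) deviated in the same direction in CON replicate 1 (0.09) and in CON replicate 2 (-0.04) before the correction, and were at 0.01 in CON replicate 3. The part of GC content in the pattern was not tested.

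**Figure D4:**
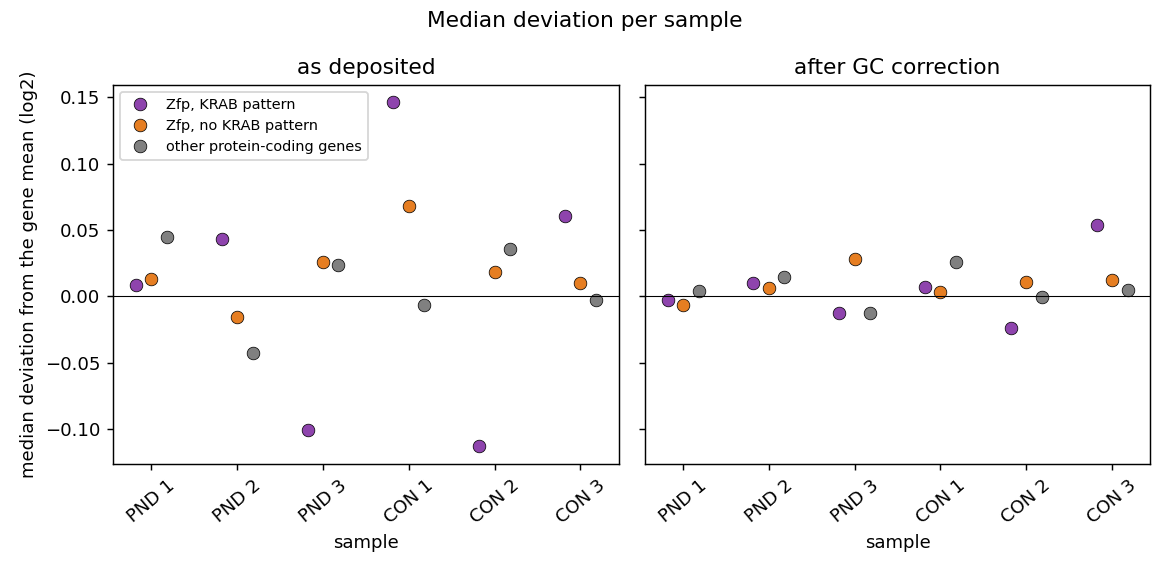
Median deviation of each sample from the gene mean (log2, vertical axis) over Zfp genes with a KRAB pattern (purple), Zfp genes without (orange) and other protein-coding genes at 2 FPKM or more (grey), for the 3 PND and 3 CON samples, as deposited (left) and after correction for GC content (right). KRAB genes are at 0.15 in CON replicate 1 and at -0.11 in CON replicate 2 on the left, and at 0.01 and -0.02 on the right.

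The Zfp genes were also compared at the ends of their GC range. Of the 56 genes of lowest GC content (up to 39.7%), 50 had lower values in PND, with a median log2 fold change of -0.12. Of the 56 genes of highest GC content 32 had lower values, with a median of -0.03. After GC correction the counts were 38 and 39 of 56, with medians of -0.05 and -0.06, and the contrast was gone. In the uncorrected values the contrast depended on single samples in both directions. It was wider without CON replicate 2, with 52 lower at low and 24 at high GC content (medians of -0.21 and 0.03), and without PND replicate 2, with 49 and 24 (medians of -0.18 and 0.06). It was also present without CON replicate 3, with 43 and 27, and without PND replicate 1, with 44 and 35. It was gone without PND replicate 3, with 37 lower in each, and it turned without CON replicate 1, with 37 lower at low and 44 at high GC content. Other protein-coding genes at 2 FPKM or more under the same GC limit had lower values in 372 of 538 genes, with a median of -0.06, and in 259 of 538 after the correction.

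By chromosome, the Zfp genes of chromosome 13 stood lowest among the 3 chromosomes that held the most. Of these 20 genes 19 had lower values in PND, with a median log2 fold change of -0.17, and the exception was Zfp369 at 0.00. The 20 include Zfp58, which was kept only through its CON values, so that its choice favours a lower value in PND. The medians were 0.02 for the 47 genes of chromosome 7 and -0.06 for the 32 of chromosome 17. Over all chromosomes they ranged from -0.17 (chromosome 10, 3 genes) to 0.17 (chromosome 1, 3 genes), with -0.12 for the 17 genes of chromosome 8. The other protein-coding genes of chromosome 13 at 2 FPKM or more had a median of -0.01 and lower values in 191 of 357. Their median GC content was 46.4%.

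None of the 20 genes of chromosome 13 had an unadjusted p below 0.05 in limma. The background was 3.13% of all genes tested and 2.06% of the other protein-coding genes, so none of 20 is near it. Many of the 20 share sequence and GC content (median 39.1%), so they are not independent of each other. After GC correction 17 of 20 had lower values, with a median of -0.11. When each sample was left out in turn, 14 to 20 of the 20 had lower values. The median was lowest without PND replicate 2 (-0.22, 18 of 20 lower) and -0.19 without CON replicate 2, with 20 of 20 lower. It was nearest to 0 without PND replicate 3, in which they deviated by a median of -0.19, with -0.07 and 14 of 20 lower. The part of GC content and of this sample in the pattern was not tested.

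**Figure D5:**
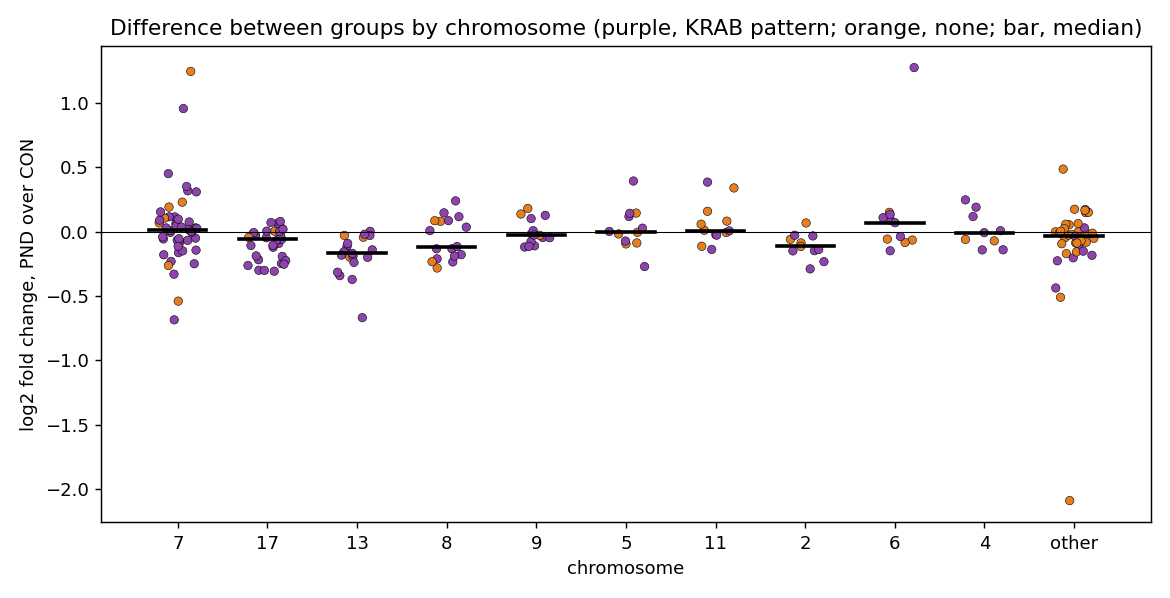
Log2 fold change of PND over CON (vertical axis) of the 224 Zfp genes by chromosome, ordered by the number of genes, with the remaining chromosomes under "other"; each point is 1 gene, purple with and orange without a KRAB pattern, and bars are medians. On chromosome 13, 19 of 20 points lie below 0, and Zfp398 is the highest point on chromosome 6.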

How the data were processed

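The authors prepared ribosomal-depleted libraries, filtered reads with Seqtk, aligned them with HISAT2, counted fragments with StringTie, scaled samples by TMM and deposited the result as FPKM, 1 column per animal. The submitters' processing notes name Bowtie 0.12.2, mm 8 and mm 9 without a role. The genome build and annotation of the mRNA values, and the use of strand, were not given in the sources used here. Fragments in overlapping genes or close copies may therefore be divided in an unknown way.

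Symbols were matched for 20866 of 21006 identifiers. Coordinates, biotype, exon length and GC content came from GENCODE M21 (GRCm38), which held 20877. Fingers were counted in the longest translated coding sequence, as cysteine, 2 to 4 residues, cysteine, 12 residues, histidine, 3 to 6 residues, histidine. A RefSeq protein table was planned for this and was not used here. KRAB was searched with HMMER 3.4 (E-value up to 1e-05) and a profile built from 82 Zfp genes. Depth was estimated from the steps of low values of FPKM times exon length. Within a preset search window, the depth was kept at which these values lay nearest to whole numbers of fragments. Between 44.0% and 47.6% of low values lay within 0.05 of a whole number, so fragment numbers are estimates.

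The groups were compared in limma 3.58.1 (R 4.3.3; lmFit, eBayes with intensity trend, two-sided) on log2(FPKM + 0.1) for genes averaging 0.1 FPKM or more, without covariates, with Benjamini-Hochberg adjustment over all 18185 genes. The GC correction was a loess fit of each sample's deviations (span 0.5). The fit and the gap rule were tested on simulated data. Alternatives were other pseudocounts, filters, normalizations, level limits and gap rules, fold changes as ratios of mean FPKM, counts without the limit on each group mean, no trend, a replicate block, and leaving out each sample. Named genes were Zfp398 and Zfp605, the genes at 2 levels or past the cut-off, the 5 highest, the 5 with the smallest p in each direction, the 3 on each side of the 2 FPKM limit, those with a textbook function, and those with the most and fewest fingers. The other genes with a gap of at least 1 were named after their values were seen. The Zfp genes and all lists were chosen with earlier results of these data known. Values of some marker genes are not reported here.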

Additional observations from a re-analysis of the deposited data

How the results depend on the processing

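Zfp260 was past the cut-off under every alternative fit run. Of the 212 Zfp genes counted, 1 was past it and 1 had an unadjusted p below 0.05 in limma. With genes at 1 FPKM or more in both group means these were 2 and 3 of 260, beside 1.33% and 3.13% of all genes tested. The number past it was 1 under every alternative with the same genes. The number at an unadjusted p below 0.05 in limma was 2 with GC correction (Zfp869 added) and 1 to 8 when each sample was left out in turn. With GC correction this was 0.943%, against 4.32% of all genes tested and 3.35% of the other protein-coding genes. With samples left out it was 0.472% to 3.77%, against 2.24% to 5.36% of all genes tested. Without the limit on each group mean, an alternative chosen after seeing the data, no such count is given. Genes kept through 1 group would enter it. At 2 levels was 1 gene. The rule found 2 with a pseudocount of 0.5 and with GC correction (Zfp398 and Zfp605), 1 to 2 when each sample was left out, 3 with a gap of 2 times the range (Zfp788 added), and 9 with any gap of at least 1, a rule chosen after seeing the data. With a pseudocount of 1 the single gene was Zfp605 and not Zfp398. The median log2 fold change lay between -0.10 (without CON replicate 2) and -0.01. Among the 6 partner genes 1 had an unadjusted p below 0.05 without the low-value filter, without the intensity trend and without CON replicate 2 (0 to 1 when each sample was left out). For 25 named genes, those without a test being left out, all 425 alternative values kept their side of the cut-off. The cause of these changes was not tested.

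Both groups carry replicate numbers 1 to 3, but same-numbered samples did not deviate together (correlations of -0.05, -0.45 and 0.03 across 12387 genes). Differently numbered samples ranged from -0.42 (PND replicate 3 with CON replicate 1) to 0.43 (PND replicate 2 with CON replicate 1). PND replicate 3 and CON replicate 2 were at 0.42. What these samples share was not tested. With the replicate block 1 Zfp gene (Zfp260) was past the cut-off and had an unadjusted p below 0.05 in limma. The same held with GC correction and block together. This was 0.472% of the Zfp genes, against 1.99% of all genes tested with the block and 3.51% with both. With 3 samples per group and a median standard error of 0.18, changes well under 2-fold were often not detectable.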
